A study of Homo sapiens with 6 samples.

Results

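GALNT genes encode the polypeptide GalNAc transferases, the Golgi enzymes that attach the first N-acetylgalactosamine (GalNAc) to serine or threonine and so start mucin-type O-glycans. The 10 genes described here, GALNT1, GALNT2, GALNT3, GALNT4, GALNT6, GALNT7, GALNT10, GALNT11, GALNT12 and GALNT14, were chosen by symbol. Of the 10, 9 were matched to an identifier among the 27264 genes of the count table; GALNT4 (ENSG00000257594) was not analysed here. A filter on low counts kept 8 of the 9 among 11732 tested genes, and GALNT14, with 4 reads in all 6 libraries together, was left out by it. All libraries were made from DLD-1, an established human line of epithelial colorectal cancer cells, whose sample names also carry the tag TR21, not explained in the labels. The 3 clones WT2, WT5 and WT37, which the study's design text gives as its biological replicates, each gave 1 library grown in DOX (doxycycline by its common abbreviation; pDOX, labelled mesenchymal) and 1 without DOX (mDOX, labelled epithelial). All 6 libraries carry the genotype label ZEB2 WT, and the study's title concerns a ZEB2-mediated epithelial-to-mesenchymal transition. The labels list 0 DOX libraries from cells without a ZEB2 construct, so DOX and ZEB2 cannot be told apart. The sources used here do not give the promoter that drives ZEB2 or how the clones were derived.

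In mucin-type O-glycosylation, several GALNT enzymes with overlapping substrate preferences compete for the same proteins, and the set that a cell makes helps to decide which sites are used. Most act on bare peptides, while GALNT7 and GALNT10 prefer peptides that already carry GalNAc. The GalNAc is then extended by core enzymes or capped by sialic acid. In the colon, secreted and membrane-bound mucins are the main carriers of such chains, and GALNT12 is known for its expression in the digestive tract.

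Reads counted in genes ran from 6234798 to 7120698 in pDOX libraries and from 5440093 to 7164426 in mDOX libraries. ZEB2 had 20, 9 and 22 reads in WT2, WT5 and WT37 with DOX, against 9, 5 and 3 reads without DOX. At these low counts it was not called. Its log2 fold change was 1.38 with the clone as a term (edgeR quasi-likelihood test, adjusted p = 0.225) and 1.37 without it (adjusted p = 0.781). Of 11 colon epithelial markers, 8 were tested. With the clone as a term EPCAM and KRT18 were called as lower and CDX2 as higher, where 1.3% of all genes were called. Groups did not overlap for 5 of the 8, with pDOX lower, against 4.56% of all genes. The summed level of the 11 was 3716 to 4791 CPM (reads scaled to a common library total) in pDOX libraries and 5635 to 7064 CPM in mDOX libraries. CDX1 was at 0 in all 6 libraries and GPA33 had at most 2 reads in any of them. Of 9 mesenchymal markers, 3 were tested (S100A4, ZEB2 and FN1), and S100A4 was called as higher in the same fit. FN1 went the other way, at 7.91 CPM on average with DOX and 11.1 CPM without. Its log2 fold change with the clone term was -0.56 (edgeR quasi-likelihood test, adjusted p = 0.287). The summed level of the 9 was 21.5 to 61.7 CPM with DOX and 18.2 to 30.4 CPM without it, and TWIST1 was at 0. The summed level of 8 markers of other cell types was 4.81 to 12.4 CPM with DOX and 4.78 to 11.4 CPM without it, with PECAM1 and COL1A2 at 0. CD14 was the 1 of them that was tested. It averaged 7.56 CPM with DOX and 6.94 CPM without, above 67.6% of the genes of the table, and was not called. The part that these marker levels have in the results below was not tested.

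The 9 genes differed widely in level, and GALNT1 and GALNT6 together held 66.2% to 70.1% of their summed reads in every library. Because the libraries read transcript 3' ends, the counts were not divided by gene length. Levels of different genes are set side by side as counted, and whether reads of each gene were captured and counted equally well was not tested. GALNT1, a broadly expressed transferase, averaged 247 ± 32.7 CPM in pDOX libraries and 214 ± 17.8 CPM in mDOX libraries (SD, n = 3 each), above 97.1% of the genes of the table. GALNT6, a close relative of GALNT3 known to glycosylate fibronectin, averaged 130.0 ± 14.3 CPM with DOX and 128 ± 5.89 CPM without DOX (SD, n = 3 each). GALNT7 followed at 70.2 ± 8.30 and 67.5 ± 6.16 CPM, then GALNT2 at 37.1 ± 9.23 and 28.8 ± 0.795 CPM and GALNT10 at 36.0 ± 2.98 and 36.2 ± 7.53 CPM, each with DOX and then without (SD, n = 3 each). GALNT2 and GALNT10 overlapped in the pDOX libraries, while in the mDOX libraries every GALNT10 value lay above every GALNT2 value. GALNT12 averaged 11.4 ± 2.48 CPM with DOX and 16.6 ± 3.54 CPM without, GALNT3 6.38 ± 3.43 and 14.5 ± 3.37 CPM, and GALNT11 8.43 ± 2.76 and 8.13 ± 1.59 CPM (SD, n = 3 each). GALNT3 lay below GALNT11 in the pDOX libraries of WT2 and WT37 and above it in all 3 mDOX libraries.

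**Figure D1:**
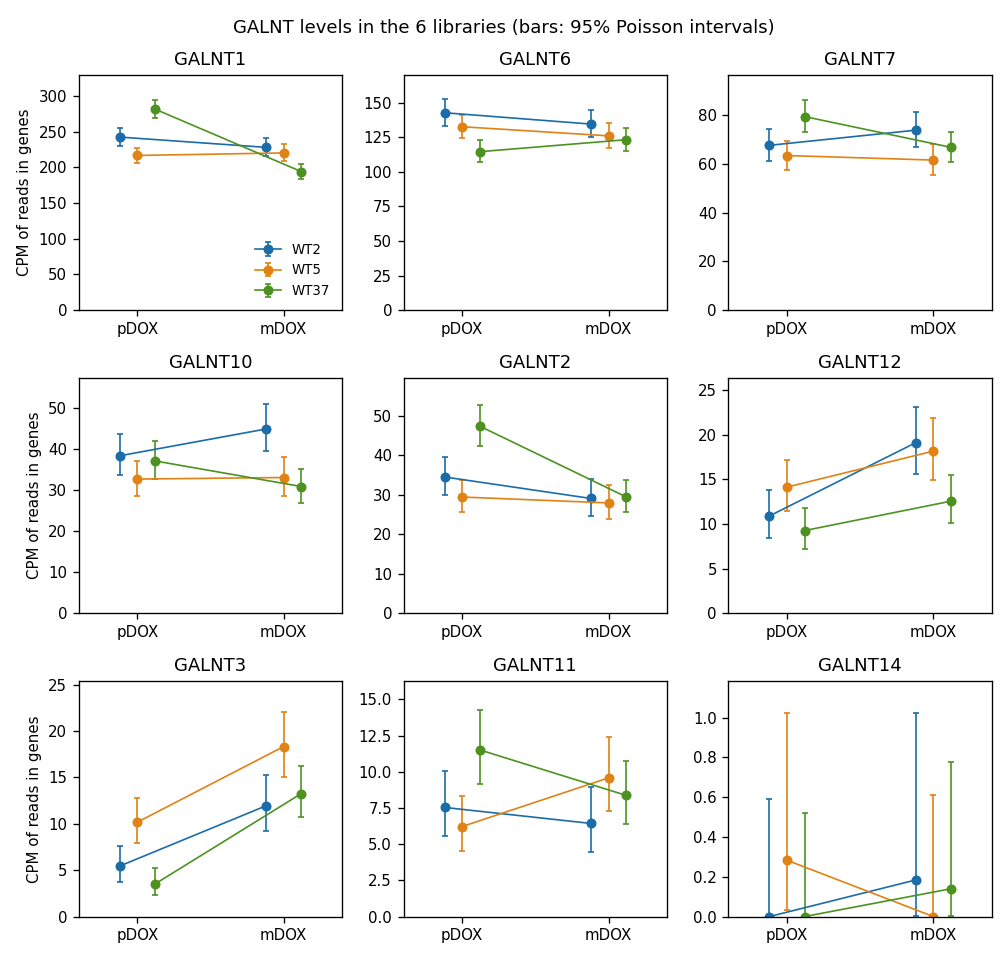
Level of each of the 9 GALNT genes in CPM of reads in genes, 1 panel per gene with its own linear axis from 0, with a point per library, exact Poisson 95% intervals as bars and a line joining the pDOX and mDOX libraries of each clone. GALNT1 is highest in every library, and GALNT3 is the 1 gene whose pDOX points, from 3.51 to 10.2 CPM, all lie below its mDOX points, from 11.9 to 18.3 CPM.

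The summed level of the 9 genes was 550 CPM in WT2, 506 CPM in WT5 and 584 CPM in WT37 with DOX, against 548, 515 and 479 CPM in the same clones without DOX. The groups overlapped, and their means differed by 32.6 CPM (two-sided exact permutation test, p = 0.4, where 3 against 3 libraries cannot go below 0.1). The permutation did not use the pairing of the libraries by clone, and the largest difference was that of WT37. With TMM scaling the difference was 17.6 CPM, and WT2 turned direction, at 563 CPM with DOX against 576 CPM without. Within that sum, GALNT1 held 45.1 ± 2.79% with DOX and 41.6 ± 1.12% without, and GALNT6 held 23.9 ± 3.75% and 24.9 ± 0.709% (SD, n = 3 each). GALNT3 held 1.20 ± 0.729% with DOX and 2.84 ± 0.693% without, and GALNT12 held 2.12 ± 0.617% and 3.21 ± 0.511% (SD, n = 3 each). The shares of GALNT7, GALNT10, GALNT2, GALNT11 and GALNT14 made up the rest.

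**Figure D2:**
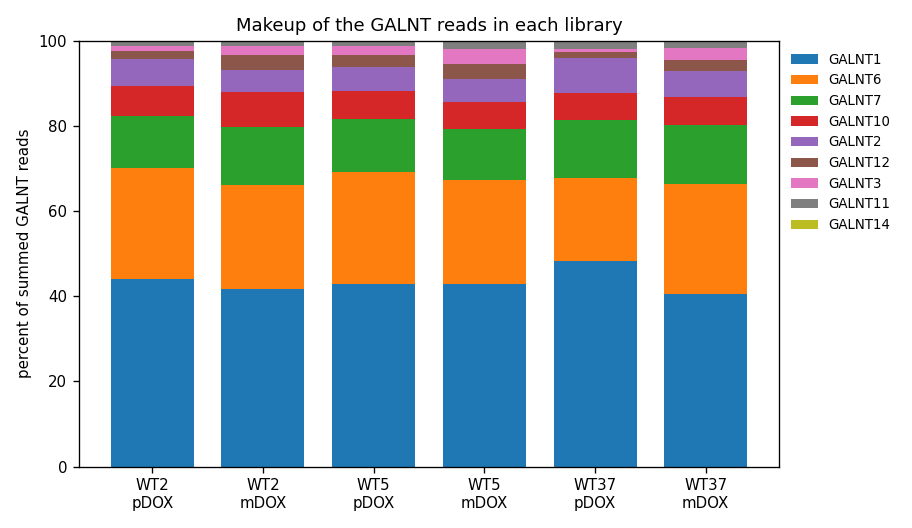
Share of each GALNT gene in the summed reads of the 9 genes, in percent, per library, with the pDOX library left of the mDOX library of each clone. GALNT1 and GALNT6 fill 66.2% to 70.1% of every bar, and GALNT3 is a thin segment of 0.601% to 3.56%.

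GALNT3 was the GALNT gene with the lower level in pDOX libraries of every clone and with groups that did not overlap. GALNT3 (ENSG00000115339, GRCh38 chromosome 2, 165747591 to 165794682, minus strand) is known for glycosylating the hormone FGF23 and so protecting it from cleavage. It had 34, 72 and 25 reads in WT2, WT5 and WT37 with DOX, against 65, 111 and 95 reads without DOX. In CPM this was 5.45, 10.2 and 3.51 with DOX, against 11.9, 18.3 and 13.3 without, so WT5 was highest in both groups and WT37 had the lowest pDOX value. The level with DOX was 0.456 times that without DOX in WT2 (95% interval 0.292 to 0.701), 0.555 times in WT5 (0.407 to 0.754) and 0.265 times in WT37 (0.163 to 0.415), where the exact intervals cover counting error only. In bulk libraries, fewer cells that express a gene and less RNA of it per cell cannot be told apart.

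Without a clone term, the log2 fold change of GALNT3 was -1.20 ± 0.37 (SE; edgeR quasi-likelihood test, Benjamini-Hochberg adjusted p = 0.583). With the clone as a term, which takes out the level at which each clone starts, GALNT3 fell by 1.28 ± 0.23 on the log2 scale (SE; edgeR quasi-likelihood test, adjusted p = 0.0249). No GALNT gene passed an adjusted p of 0.05 without the clone term, and neither did any other gene (0% of 11732), although 6.04% of all genes (709), and GALNT3 and GALNT12 among the 8, had an unadjusted p under 0.05; DESeq2 called 57 genes and limma-voom 0. With the clone term, GALNT3 was the 1 of 8 GALNT genes called, against 1.3% of all genes, of which 0.639% were called as lower and 0.656% as higher. An unadjusted p under 0.05 in that fit was reached by 3 of 8 GALNT genes (GALNT2, GALNT3 and GALNT12) and by 12.9% of all genes. The call of GALNT3 was lost without WT2 or without WT37, while its direction stayed. Without WT2 its blocked log2 fold change was -1.34 (edgeR quasi-likelihood test, adjusted p = 0.157) and without WT37 it was -0.98 (adjusted p = 0.227), while without WT5 it was -1.57 (adjusted p = 0.00699). Calls over all genes also fell, from 152 with all clones to 8 without WT2 and 5 without WT37, against 736 without WT5. Groups did not overlap for 1 of the 8 GALNT genes and for 11.1% of all genes, with pDOX lower for 4.56% (GALNT3 among them) and higher for 6.55% (0 GALNT genes).

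ZEB proteins are known to bind E-boxes with the letters CACCTG, or CAGGTG when read on the other strand. Promoter windows of 300 bases, from 250 before to 50 after the transcript start that RefSeq gives, were taken from RefSeq (GRCh38.p14) and matched for 8 of the 10 genes, GALNT4 and GALNT6 not among them. The window of GALNT3 held 2 such motifs, with first bases 93 upstream and 5 downstream of the start, that of GALNT12 held 1, 79 upstream, and 1 of the windows of GALNT14 held 1, 126 upstream. GALNT1, GALNT2, GALNT7, GALNT10 and GALNT11 held 0, and so did the windows of B3GNT3, which fell with DOX, and of CMAS and GNE, genes of the same pathway described further on. No window was matched for ST3GAL2, a gene of the pathway that rose with DOX. Of 35116 promoter windows of this length, 20.59% held at least 1 and 3.494% at least 2. The windows of GALNT3 (chr2:165794198-165794497, minus strand) and GALNT12 (chr9:98807420-98807719, plus strand) are shown because these genes were lower with DOX in all 3 clones, and that of GALNT2 (chr1:230066988-230067287, plus strand) because it was the 1 of the 8 genes higher in all 3 clones. RefSeq's start is not always that of the GENCODE gene. The windows of GALNT2, GALNT3, GALNT11, GALNT14 and B3GNT3 lie inside the GENCODE genes, downstream of where these begin. So do some of the windows of GALNT1 and GNE, and the distances are from RefSeq's start only. Each reads 5′ to 3′ on the strand of its gene, with the motif in capitals.
GALNT3: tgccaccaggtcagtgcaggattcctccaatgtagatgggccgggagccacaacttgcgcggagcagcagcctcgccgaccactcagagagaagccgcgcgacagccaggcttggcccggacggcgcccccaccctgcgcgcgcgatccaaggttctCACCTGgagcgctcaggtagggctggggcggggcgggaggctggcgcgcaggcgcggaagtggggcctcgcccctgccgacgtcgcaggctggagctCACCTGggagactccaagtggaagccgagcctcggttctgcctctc
GALNT12: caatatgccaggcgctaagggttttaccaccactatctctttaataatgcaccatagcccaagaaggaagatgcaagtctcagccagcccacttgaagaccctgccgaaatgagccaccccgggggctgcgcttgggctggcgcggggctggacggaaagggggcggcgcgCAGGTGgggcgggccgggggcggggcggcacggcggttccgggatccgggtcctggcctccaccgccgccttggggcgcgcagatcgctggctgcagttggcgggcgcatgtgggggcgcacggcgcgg
GALNT2: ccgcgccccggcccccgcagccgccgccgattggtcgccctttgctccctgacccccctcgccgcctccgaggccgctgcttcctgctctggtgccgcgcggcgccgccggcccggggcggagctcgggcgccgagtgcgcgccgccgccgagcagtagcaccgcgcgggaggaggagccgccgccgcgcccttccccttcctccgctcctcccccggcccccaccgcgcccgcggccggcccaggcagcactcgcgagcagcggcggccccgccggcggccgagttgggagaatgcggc
A match of letters is a description and was not tested as a binding site.

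GALNT12 (ENSG00000119514, GRCh38 chromosome 9, 98807699 to 98850081, plus strand) also had the lower level with DOX in each clone, but did not pass the test. It had 10.9, 14.1 and 9.27 CPM in WT2, WT5 and WT37 with DOX, against 19.1, 18.2 and 12.6 CPM without. The groups overlapped, because WT5 with DOX lay above WT37 without DOX. The ratio of the level with DOX to that without was 0.571 in WT2 (95% counting interval 0.414 to 0.782), 0.778 in WT5 (0.588 to 1.03) and 0.738 in WT37 (0.529 to 1.03). The log2 fold change with the clone term was -0.57 ± 0.17 (SE; edgeR quasi-likelihood test, adjusted p = 0.164), and without it -0.57 ± 0.25 (adjusted p = 0.810). A lower level in all 3 clones was seen for GALNT3 and GALNT12 among the 8 GALNT genes and for 13.8% of all genes tested.

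GALNT2 and GALNT1, both broadly expressed starters of O-glycans, had their largest differences in WT37. GALNT2 (ENSG00000143641) had 34.5, 29.4 and 47.3 CPM in WT2, WT5 and WT37 with DOX, against 29.0, 27.9 and 29.5 CPM without. The ratio with to without DOX was 1.61 in WT37 (95% counting interval 1.35 to 1.92), 1.19 in WT2 (0.962 to 1.47) and 1.05 in WT5 (0.856 to 1.30). It was the 1 of the 8 genes higher with DOX in all 3 clones, against 21.3% of all genes, and its blocked log2 fold change of 0.31 ± 0.14 did not pass the test (SE; edgeR quasi-likelihood test, adjusted p = 0.376). GALNT1 (ENSG00000141429) had 243, 217 and 282 CPM with DOX, against 228, 220 and 194 CPM without, in the same order of clones. The ratio for GALNT1 was 1.45 in WT37 (1.35 to 1.55), 1.06 in WT2 (0.986 to 1.15) and 0.984 in WT5 (0.913 to 1.06), so the interval excluded 1 in WT37 only. The blocked log2 fold change of GALNT1 was 0.16 ± 0.11 (SE; edgeR quasi-likelihood test, adjusted p = 0.550). Without WT37 the blocked log2 fold change was 0.016 for GALNT1 and 0.15 for GALNT2. With 1 library per clone and condition, a difference between the clones in their response to DOX was not tested.

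The 4 other tested genes lay near no change on average. GALNT6 (ENSG00000139629) had 143, 133 and 115 CPM in WT2, WT5 and WT37 with DOX and 135, 126 and 123 CPM without. All 3 within-clone intervals, computed without TMM scaling, included a ratio of 1, and TMM scaling moved the ratio in WT37 from 0.930 to 0.882. GALNT7 (ENSG00000109586) had 67.7, 63.5 and 79.5 CPM with DOX and 73.9, 61.6 and 66.9 CPM without, with a ratio of 1.19 in WT37 (1.05 to 1.35), or 1.13 with TMM scaling. Both are abundant, so these libraries hold 373 reads or more of each. GALNT10 (ENSG00000164574), like GALNT7 an enzyme that prefers substrates already carrying GalNAc, had 38.3, 32.7 and 37.1 CPM with DOX and 44.9, 33.0 and 30.8 CPM without. Its ratio in WT37 was 1.20 (1.00 to 1.44, the lower bound just above 1), or 1.14 with TMM scaling. GALNT11 (ENSG00000178234), another transferase of the family, had 7.54, 6.22 and 11.5 CPM with DOX and 6.43, 9.58 and 8.37 CPM without, with a ratio of 0.649 in WT5 (0.429 to 0.978). The clones differed in direction for these 4 genes, and their blocked log2 fold changes lay between -0.03 and 0.02 with standard errors of 0.10 to 0.24 (edgeR quasi-likelihood test, adjusted p from 0.949 to 0.997). GALNT14 (ENSG00000158089) had 2 reads in WT5 with DOX and 0 in the other pDOX libraries, against 1, 0 and 1 reads in WT2, WT5 and WT37 without DOX, too few for a comparison at this depth. The median blocked log2 fold change was -0.011 over the 8 GALNT genes and 0.0061 over all genes tested.

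**Figure D3:**
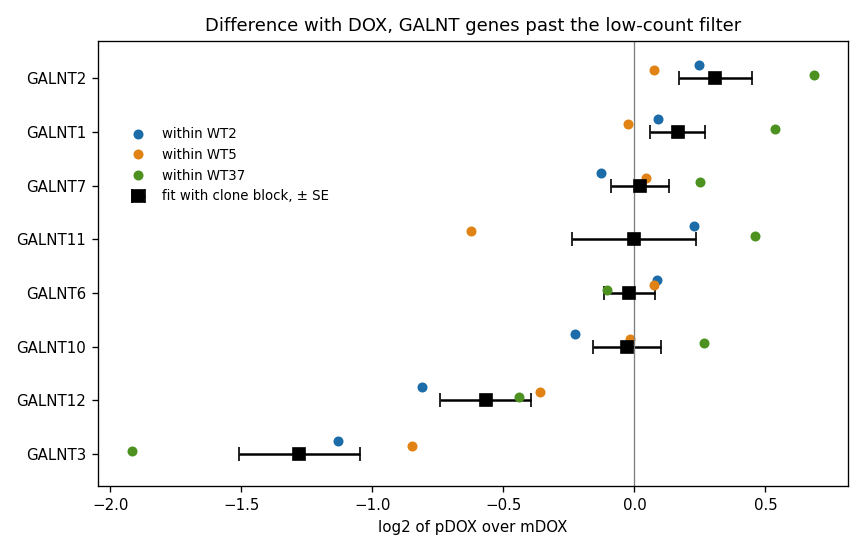
Change with DOX of the 8 tested GALNT genes on the log2 scale, pDOX over mDOX, with the ratio within each clone as coloured points and the change fitted with the clone term as a black square with its SE as a bar. GALNT3 lies below 0 in all 3 clones, with ratios from 0.265 to 0.555, while GALNT1 and GALNT2 are highest in WT37.

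Between clones, none of the 8 GALNT genes passed the test, against 6.84% of all genes called by the F test over the 3 clones with DOX as a covariate. At an unadjusted p under 0.05 stood GALNT3, GALNT6, GALNT10 and GALNT12, 4 of 8, against 24.8% of all genes. GALNT3 averaged 8.39 CPM in WT37, 14.3 CPM in WT5 and 8.70 CPM in WT2, over the 2 libraries of each clone (edgeR quasi-likelihood F test, adjusted p = 0.0924). WT5 was thus the highest clone for GALNT3, and WT37 lay below it by a log2 fold change of -0.95 ± 0.28 (SE, adjusted p = 0.0618). GALNT12 averaged 10.9, 16.2 and 15.0 CPM in WT37, WT5 and WT2 (adjusted p = 0.131), with WT37 over WT5 at -0.65 ± 0.21 (SE, adjusted p = 0.0909). GALNT6 averaged 119, 129 and 139 CPM in the same order (adjusted p = 0.187) and GALNT10 34.0, 32.9 and 41.6 CPM (adjusted p = 0.181). For each pair of clones 0 of the 8 genes were called, where 5.83% of all genes were called for WT37 over WT2, 5.92% for WT37 over WT5 and 1.02% for WT5 over WT2. GALNT1, GALNT2, GALNT7 and GALNT11 had adjusted p from 0.428 to 0.693 in the F test. Without WT5, GALNT6 passed between WT37 and WT2 (adjusted p = 0.0359), and without the filter on low counts GALNT3 passed (adjusted p = 0.0116).

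Of 9 further GALNT family genes in the table, GALNT18 and GALNT5 were tested and neither was called with DOX or between clones. GALNT18 had 10.3, 8.34 and 15.9 CPM in WT2, WT5 and WT37 with DOX, against 7.17, 6.77 and 12.1 CPM without (blocked log2 fold change 0.36; edgeR quasi-likelihood test, adjusted p = 0.451). GALNT5 had 3.21, 7.78 and 4.92 CPM with DOX, against 1.84, 7.43 and 7.40 CPM without (blocked log2 fold change -0.08, adjusted p = 0.940). The readthrough POC1B-GALNT4, which shares its bases with GALNT4, had 0 to 2 reads per library. POC1B, with 212 to 272 reads, also covers the 3' end of both on the same strand. The few reads of the readthrough thus do not tell the level of GALNT4.

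Downstream of the GALNT enzymes, 3 genes of the sugar-extending, capping and donor supply lists were called by edgeR with the clone term, of 30 tested, and 0 without it, against 1.3% and 0% of all genes. These lists were chosen with earlier results of these data known, and whether they hold more calls than other genes was not tested. Among 9 tested core and branch enzymes, B3GNT3, which lengthens O-glycans by adding N-acetylglucosamine, fell: it had 19.9, 18.5 and 11.8 CPM in WT2, WT5 and WT37 with DOX, against 41.0, 26.9 and 32.1 CPM without. Its groups did not overlap, and the blocked log2 fold change was -1.04 ± 0.18 (SE; edgeR quasi-likelihood test, adjusted p = 0.0193; without the block adjusted p = 0.412). GCNT3, a branching enzyme of mucin glycans, had a blocked log2 fold change of 0.40 (adjusted p = 0.566).

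Of 9 tested capping enzymes, ST3GAL2, which adds sialic acid to galactose of O-glycans, rose to 23.9, 24.6 and 45.2 CPM with DOX, against 9.19, 15.0 and 18.3 CPM without, in WT2, WT5 and WT37. Again the groups did not overlap, and the blocked log2 fold change was 1.09 ± 0.16 (SE; edgeR quasi-likelihood test, adjusted p = 0.0114; without the block adjusted p = 0.435). Its relative ST3GAL1 had a change of 0.72 that did not pass (adjusted p = 0.193). The capping enzymes did not all move 1 way: 5 of the 9 had a blocked log2 fold change above 0. Groups did not overlap for 2 of the 9 with pDOX higher and for 1 with pDOX lower, against 6.55% and 4.56% of all genes. Of 12 genes that supply the sugar donors, CMAS, which activates sialic acid, rose to 251, 179 and 297 CPM with DOX, against 177, 144 and 183 CPM without, where WT5 with DOX lay below WT37 without DOX (blocked log2 fold change 0.47 ± 0.09, SE; edgeR quasi-likelihood test, adjusted p = 0.0360; without the block adjusted p = 0.678). GNE, which starts sialic acid synthesis, had a change of 0.60 (adjusted p = 0.0822); it overlaps CLTA, with 2026 to 3028 reads, on the opposite strand. All 3 calls were lost without WT2 or without WT37: the adjusted p without WT37 was 0.190 for B3GNT3, 0.124 for ST3GAL2 and 0.543 for CMAS, and without WT2 it was 0.183, 0.0933 and 0.271 for the same genes. The log2 fold changes without WT37 were -0.81, 1.00 and 0.39, and without WT2 -1.02, 0.99 and 0.47, in that order, while the calls over all genes numbered 5 without WT37 and 8 without WT2, against 152 with all clones.

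Among the proteins that carry O-glycans, 0 of 15 tested mucins and mucin-like acceptors were called with DOX, a count too small to set apart from the 1.3% of all genes called with the clone term. The largest changes were those of the secreted mucin MUC5AC (blocked log2 fold change -0.66, edgeR quasi-likelihood test, adjusted p = 0.403) and of fibronectin, FN1 (-0.56, adjusted p = 0.287). The clones differed in direction for MUC5AC, with ratios of 0.557 in WT2, 1.43 in WT5 and 0.400 in WT37. Groups did not overlap for 1 of the 15 with pDOX higher and 1 with pDOX lower, against 6.55% and 4.56% of all genes. Likewise 0 of 15 tested Golgi residents that are no glycosyltransferases were called, again a count too small to set apart, with GOLIM4 (0.54, adjusted p = 0.248) and GORASP2 (-0.16, adjusted p = 0.516) the most changed. The median blocked log2 fold change was -0.14 for the core and branch enzymes, 0.11 for the capping enzymes, -0.011 for the donor supply genes, 0.04 for the acceptors and 0.01 for the Golgi residents.

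**Figure D4:**
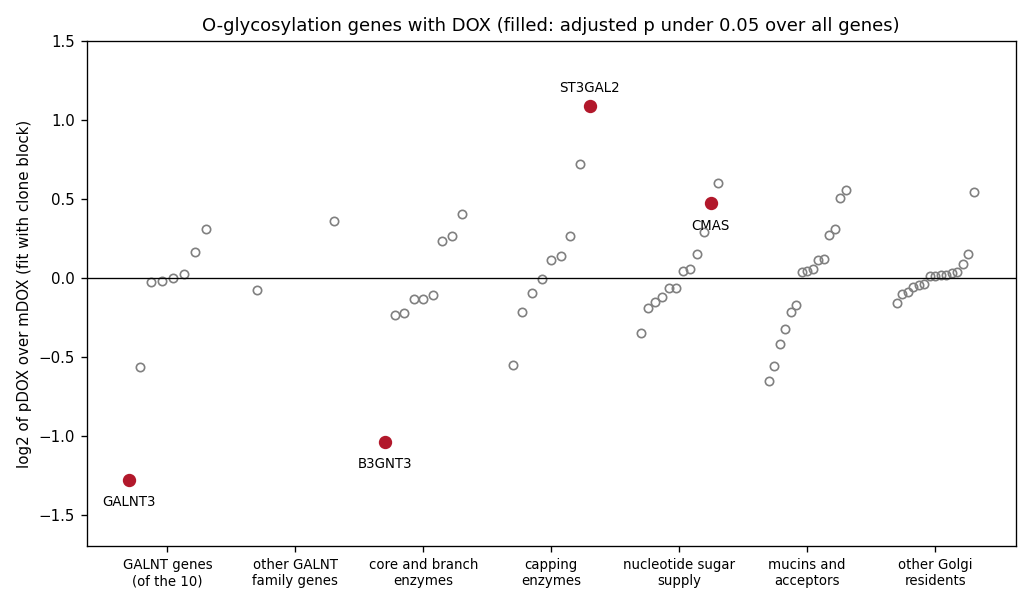
Fitted log2 fold change with the clone term, pDOX over mDOX, for each tested gene of the GALNT genes and of the other lists of the pathway, with called genes filled and named. GALNT3 (-1.28) and B3GNT3 (-1.04) are the called genes below 0, and ST3GAL2 (1.09) and CMAS (0.47) those above.

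Between clones, genes of these lists did pass where the GALNT genes did not; whether the lists differ in this was not tested. GCNT3 averaged 8.12, 5.65 and 1.34 CPM in WT37, WT5 and WT2 (edgeR quasi-likelihood F test, adjusted p = 0.00554). ST6GALNAC4, a sialyltransferase of short O-glycans, averaged 13.7, 8.98 and 3.34 CPM in the same order (adjusted p = 0.00898), and ST3GAL2 31.8, 19.8 and 16.5 CPM (adjusted p = 0.0495). In all 3 WT37 was the highest clone. Of the donor supply genes, NANS, which makes sialic acid phosphate, averaged 62.3, 86.0 and 91.2 CPM (adjusted p = 0.0192), GNE 47.6, 23.5 and 34.4 CPM (adjusted p = 0.0309) and CMAS 240, 162 and 214 CPM (adjusted p = 0.0482). Of the acceptors, podocalyxin (PODXL) averaged 186, 111 and 102 CPM (adjusted p = 0.00469) and CD24 49.4, 33.5 and 29.2 CPM (adjusted p = 0.0365). The Golgi residents GOLGA2 (adjusted p = 0.0122), COPG1 (adjusted p = 0.0135) and COPA (adjusted p = 0.0149) passed the F test too.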

How the data were processed

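Libraries were built with Lexogen's QuantSeq 3' kit (FWD), per the labels' protocols. The deposited table holds the authors' raw read counts per Ensembl gene. The submitters' processing notes name GRCh38 and DESeq2; no aligner, counter or annotation is stated in the sources used here. Reads outside genes (unmapped, 4.29% to 5.25%; multiply mapped, 11.8% to 16.0%; outside features, 8.72% to 11.7%; ambiguous, 6.85% to 7.40%) stayed out of library sizes and tests. Strand use in counting is not stated either, so the reads of GALNT2, GALNT7, GALNT10, GALNT11 and GALNT12, of CMAS and of GNE cannot be told apart from those of genes annotated opposite their 3' ends or within 630 bases of them. The genes opposite GALNT7, GALNT10 and CMAS had at most 4, 10 and 12 reads of their own in any library, and those opposite GALNT2, GALNT11 and GALNT12 were not analysed here. A table of gene names gave symbols for 22056 identifiers, and positions came from GENCODE on GRCh38.

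CPM were computed on reads in genes. Tests used edgeR 4.0.16 under R 4.3.3 (TMM scaling, filterByExpr, robust quasi-likelihood test, Benjamini-Hochberg adjustment over 11732 genes, threshold 0.05). Both groups had 3 clones, which are replicates of 1 cell line with 1 library per condition. The design had no clone term, and the clone as replicate block was the alternative; the deviations of same-clone libraries from the group means correlated across genes (WT2 r = 0.49, WT5 r = 0.28, WT37 r = 0.53), so the clone numbers pair the samples. Clones were compared with DOX as a covariate. There the libraries of a clone with and without DOX served as its replicates. DOX was thereby taken to act alike in all clones. Within-clone ratios have exact conditional binomial intervals at 95%. Alternatives used DESeq2 1.42.0 and limma 3.58.1. Libraries of 1 group differed by 6.41 to 20.5 times the degrees of freedom in a chi-square comparison. The scripts were tested on simulated counts. All 10 GALNT genes are named; of other lists, called genes and the 2 with the largest blocked change, and between clones at most 3 called genes per list, of which 1 is not reported here. The genes and lists were chosen with earlier results of these data known.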

Additional observations from a re-analysis of the deposited data

How the results depend on the processing

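With the replicate block, 152 genes were called with DOX and 1 of them was a GALNT gene, GALNT3, against 0 and 0 without it. Without the block, 206 genes were called with no filter on low counts and 57 by DESeq2, of which 1 (GALNT3) and 0 were GALNT genes; 0 to 35 genes and 0 GALNT genes were called when a clone or library was left out (35 without the pDOX library of WT5). With the block, 155 genes were called with DESeq2 size factors, 518 with no filter, 131 with a stricter filter, 127 by DESeq2 and 185 by limma-voom, with 1 GALNT gene each; 8 genes were called without WT2, 736 without WT5 and 5 without WT37, with 0, 1 and 0 GALNT genes. The log2 fold change of GALNT3 ran from -1.75 to -0.88 when a clone or library was left out, and its adjusted p over all alternatives from 0.00210 to 0.9999 without the block and from 1.47e-06 to 0.227 with it. Those of GALNT1, GALNT2, GALNT3 and GALNT12 kept their direction under every alternative run, but with a clone or library left out GALNT1 ran from 0.016 to 0.26 and GALNT2 from 0.15 to 0.44. The value of GALNT11 turned to -0.0026 with the block, -0.0038 with the block and DESeq2 size factors, -0.00079 with the block and stricter filter, -0.011 with the block and DESeq2 and -0.015 with limma-voom. With a clone or library left out and no block, it ran from -0.24 to 0.30, GALNT6 from -0.11 to 0.11, GALNT7 from -0.065 to 0.11 and GALNT10 from -0.17 to 0.16. With the block, it was -0.088 without WT2 and -0.23 without WT37, GALNT6 was 0.064 and GALNT7 -0.058 without WT37, and GALNT10 was 0.089 without WT2. The adjusted p of B3GNT3 ran from 1.28e-08 to 0.190 over the blocked alternatives, that of ST3GAL2 from 7.44e-09 to 0.124 and that of CMAS from 0.000395 to 0.543; without the block DESeq2 also called B3GNT3 (0.0314) and ST3GAL2 (0.0336). The block changed no other call among the GALNT genes.

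Between clones, 802 genes were called, with 1783 under no filter, 436 by DESeq2 and 129 to 1782 when a clone was left out (406 without WT2, 1782 without WT5, 129 without WT37); 1 GALNT gene passed with no filter and 0 to 1 when a clone was left out. Under TMM scaling all 24 within-clone ratios stayed inside their counting intervals. The intervals themselves were not rescaled, so whether one includes 1 can depend on the scaling. In WT37 the ratios of GALNT6, GALNT7, GALNT10 and GALNT12 fell to 0.882, 1.13, 1.14 and 0.700. The summed level differed by 17.6 CPM with TMM scaling (two-sided exact permutation test without pairing by clone, p = 0.7). The sum without GALNT4 was not run, since GALNT4 was not in it. The causes of these differences were not tested. Depth limits GALNT14, GALNT11 and GALNT3 most.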
